A study of Bos taurus with 22 samples.

Results

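CSF3R, MMP9, TGM3 and QSOX1 are 4 genes that were matched by their symbols to the Ensembl gene identifiers of the count table, which holds 27607 genes. All 4 passed the abundance filter, CPM (counts scaled to each library's total) above 1 in at least 5 heifers, together with 13535 genes in all. The transcripts were quantified by RNA-sequencing of polyadenylated RNA from circulating white blood cells of 22 heifers (Bos taurus), with 1 library for each animal. The symbols came from a table that the study ordered by the difference between fertility groups, of which the first 1401 rows were used here. The members were thus chosen by measured values of that contrast. Their fertility difference is therefore given below as a description, with no test. The breed difference, the dependence of the fertility difference on breed and the co-variation of the genes within groups did not order that table. The members were, however, chosen with earlier results of these data known, so the tests below are not free of that choice.

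The heifers were purebred Angus (n = 12, about 14 months old) or purebred Holstein (n = 10, about 12 months old), with no treatment apart from the estrus synchronization that all of them received before their first artificial insemination, when blood was drawn. Synchronization used a progesterone device for 7 days in Angus and for 5 days in Holstein heifers, so breed cannot be told apart from age, protocol and management. Heifers that calved from the first insemination were named Fertile (5 Angus, 5 Holstein). Sub-Fertile Angus heifers (n = 7) had no pregnancy after 2 inseminations and exposure to a bull, and Sub-Fertile Holstein heifers (n = 5) needed at least 4 inseminations. The labels number the animals, with heifers 1 to 5 Holstein Sub-Fertile, 6 to 10 Holstein Fertile, 11 to 17 Angus Sub-Fertile and 18 to 22 Angus Fertile. The white blood cells were taken as the buffy coat of centrifuged blood, followed by lysis of red blood cells. White blood cells comprise neutrophils, lymphocytes, monocytes and rarer leukocytes, and the share of each that the preparation recovered was not tested. In such bulk samples fewer cells of a type and less RNA per cell cannot be told apart.

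Libraries held 12182400 to 49228035 counts, with a median of 23158374. Some libraries of different heifers resembled each other closely. Pairs were called close where each heifer was the other's nearest and the biological coefficient of variation between both was below 0.5 of the median over all pairings. There were 8 such close pairs (coefficients of 0.0378 to 0.0829), whereas the other 223 pairings had coefficients of 0.0981 to 0.261. Their members came from different breeds in 4 pairs and from different fertility groups in 6, and 0 pairs shared both labels. No close pair thus came from a single group of breed and fertility, though some pairs shared 1 of both labels. The share of all pairings that carry the same labels was not computed, so no conclusion about the labels is drawn from this count. Whether each library belongs to the heifer it is labelled for was not tested, so the breed and fertility values below hold for the libraries as labelled. The tests below take the heifers as independent of each other, and their values without 1 heifer of each close pair, or with the pairs as blocks, are given where they change a result.

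CSF3R encodes the receptor for granulocyte colony-stimulating factor (G-CSF), the cytokine that drives the production and release of neutrophils from the bone marrow. MMP9 is a gelatinase that neutrophils store in granules, and much of a neutrophil's granule protein is made in the marrow before the cell enters the blood. TGM3 is a calcium-dependent transglutaminase, known chiefly for cross-linking proteins of the epidermis and hair follicle. QSOX1 is a sulfhydryl oxidase that forms disulfide bonds in proteins of the secretory pathway and is not restricted to neutrophils.

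In the Ensembl annotation of the ARS-UCD1.2 assembly, CSF3R (ENSBTAG00000013334) lies at chr3:109418279-109429587, MMP9 (ENSBTAG00000020676) at chr13:74746976-74754303, TGM3 (ENSBTAG00000001785) at chr13:52793538-52836265 and QSOX1 (ENSBTAG00000014191) at chr16:61362225-61403864. Counts were taken per whole gene. By RefSeq names, CSF3R overlaps 1 other gene, the microRNA gene MIR12039, and 0 genes overlap the others.

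CSF3R was the most abundant of the 4 genes. Per kilobase of transcript, the mean level over the 22 heifers was 88.4 CPM per kilobase for CSF3R, 45.0 for QSOX1, 13.1 for TGM3 and 0.905 for MMP9. CSF3R was above QSOX1 in 20 of 22 heifers (the exceptions were heifers 8 and 9), QSOX1 was above TGM3 in 21 (the exception was heifer 3), and TGM3 was above MMP9 in 22. Their order was thus nearly the same in every animal, although the genes differed widely in how much they varied. The highest level was 4.50 times the lowest for CSF3R, 13.2 times for MMP9, 31.3 times for TGM3 and 1.89 times for QSOX1.

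**Figure D1:**
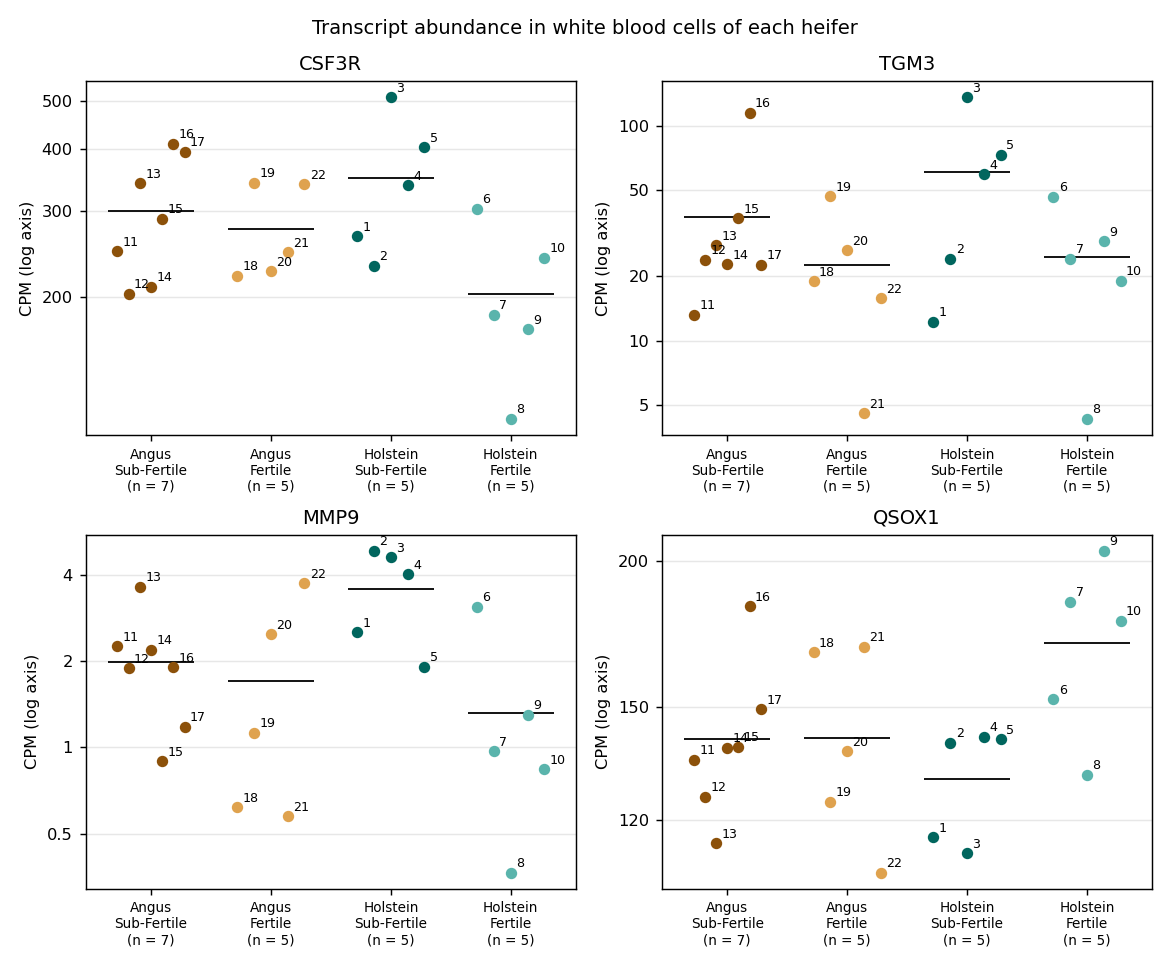
Transcript abundance (CPM, log axis) of CSF3R, TGM3, MMP9 and QSOX1 in each of 22 heifers, labelled by heifer number, in the 4 groups of breed and fertility, with horizontal bars at group means. TGM3 spreads from 4.33 to 136 CPM, QSOX1 only from 108 to 204 CPM, and the Fertile and Sub-Fertile heifers of each breed overlap for every gene.

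In the 5 Holstein Sub-Fertile heifers, the CSF3R level was 266, 232, 510, 338 and 403 CPM (mean 350 ± 111, SD). The 5 Holstein Fertile heifers had 303, 184, 113, 172 and 241 CPM (203 ± 71.9, SD). The last values of heifers 7, 8 and 9 were below every Holstein Sub-Fertile heifer, but heifers 6 and 10 were within their range. Angus Sub-Fertile heifers ranged from 203 to 410 CPM with a median of 289 (mean 299 ± 84.7, SD, n = 7), and Angus Fertile heifers had 221, 342, 226, 247 and 340 CPM (275 ± 60.7, SD). The receptor transcript was therefore high in all groups, with the lowest library, heifer 8, and the highest, heifer 3, both Holstein.

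The TGM3 level was 12.3, 24.0, 136, 59.2 and 73.2 CPM in the Holstein Sub-Fertile heifers (60.9 ± 48.6, SD). It was 46.7, 24.0, 4.33, 29 and 19 CPM in the Holstein Fertile heifers (24.6 ± 15.4, SD). The 2 ranges overlapped, with 1 of 5 Fertile heifers below all Sub-Fertile heifers. In Angus, Sub-Fertile heifers ranged from 13.2 to 115 CPM with a median of 23.8 (37.4 ± 34.9, SD, n = 7), and Fertile heifers had 18.9, 46.8, 26.3, 4.60 and 15.7 CPM (22.5 ± 15.7, SD). Among Angus Sub-Fertile heifers, heifer 16 stood alone, since the next highest had 37.2 CPM.

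TGM3 was 1 of the most variable transcripts of the white blood cells. Its coefficient of variation over the 22 heifers was 91.5%, larger than that of 99.2% of all tested genes and of 99.8% of the 4581 genes of like level, whose median was 12.4%. The coefficient was 33.1% for CSF3R, 63.2% for MMP9 and 17.9% for QSOX1, against medians of 10.5%, 30.3% and 10.4% for genes of like level. Each of the 4 genes thus varied more than most genes of its own abundance.

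MMP9 was scarce. The 5 Holstein Sub-Fertile heifers had 2.52, 4.84, 4.60, 4.01 and 1.91 CPM (3.57 ± 1.30, SD), and the 5 Holstein Fertile heifers had 3.08, 0.968, 0.366, 1.30 and 0.839 CPM (1.31 ± 1.05, SD). In MMP9, 4 of the 5 Holstein Fertile heifers were below every Holstein Sub-Fertile heifer, and heifer 6 was above 2 of them. Angus Sub-Fertile heifers ranged from 0.895 to 3.63 CPM with a median of 1.90 (1.99 ± 0.882, SD, n = 7), and Angus Fertile heifers had 0.619, 1.12, 2.48, 0.575 and 3.73 CPM (1.71 ± 1.37, SD). These levels rest on 6 to 205 counts per library, and the 6 counts of heifer 8 leave an exact Poisson 95% interval of 0.134 to 0.797 CPM, which covers counting error only. The mean MMP9 level was above that of only 10.9% of the tested genes.

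The QSOX1 level was the steadiest. The Holstein Sub-Fertile heifers had 116, 140, 112, 141 and 141 CPM (130 ± 14.5, SD), and the Holstein Fertile heifers had 152, 185, 131, 204 and 178 CPM (170 ± 28.5, SD). Here the order of the Holstein groups was the opposite of that of the other 3 genes, with 4 of 5 Fertile heifers above every Sub-Fertile heifer and heifer 8 within their range. Angus Sub-Fertile heifers ranged from 115 to 183 CPM with a median of 138 (141 ± 21.6, SD, n = 7), and Angus Fertile heifers had 167, 124, 137, 169 and 108 CPM (141 ± 26.5, SD). The Angus means could not be separated.

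Next, transcript abundance was compared between breeds, accounting for fertility group. No difference was resolved for any of the 4 genes. The log2 fold change of Holstein over Angus heifers was -0.08 for CSF3R (95% interval -0.46 to 0.30), 0.30 for MMP9 (-0.46 to 1.05), 0.44 for TGM3 (-0.48 to 1.36) and 0.06 for QSOX1 (-0.14 to 0.27). The adjusted p-values from the edgeR quasi-likelihood test over all tested genes were 0.888, 0.779, 0.723 and 0.829. The intervals for TGM3 and MMP9 left room for differences in abundance of more than 2 times in favour of Holstein heifers, whereas the interval for QSOX1 was narrow. Exact permutation tests of the breed labels within fertility groups (two-sided, 199584 regroupings) gave p = 0.589 for CSF3R, 0.355 for MMP9, 0.447 for TGM3 and 0.527 for QSOX1.

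Over all tested genes, edgeR called 0 (0%) for breed at an adjusted p under 0.05 and 1440 (10.6%) at an unadjusted p under 0.05, of which 4.56% of all tested genes were higher and 6.08% lower in Holstein heifers, and DESeq2 called 10 (0.0739%) and 1751 (12.9%). The 4 genes were in none of these sets. With the close pairs as blocks, breeds are compared only within the 4 pairs of both breeds. The log2 fold change was then -0.32 for CSF3R (95% interval -0.91 to 0.27), -0.45 for MMP9 (-1.24 to 0.34), -0.88 for TGM3 (-2.05 to 0.30) and -0.01 for QSOX1 (-0.14 to 0.12). The sign of the last 3 estimates turned, but each interval included 0. Without heifers 7, 8, 12 and 16, an alternative chosen after seeing the data, the log2 fold change was 0.96 for TGM3 (95% interval 0.04 to 1.87, edgeR unadjusted p = 0.0417, adjusted p = 0.353) and 0.05 for CSF3R.

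The estimated fertility difference was negative for CSF3R, MMP9 and TGM3 and positive for QSOX1, but its direction did not hold for MMP9 and QSOX1 with the close pairs as blocks. With both breeds in the fit, the Fertile over Sub-Fertile difference on the log2 scale was -0.43 ± 0.184 (SE) for CSF3R, -0.74 ± 0.368 for MMP9, -0.98 ± 0.453 for TGM3 and 0.18 ± 0.0997 for QSOX1. With the close pairs as blocks, which compares fertility groups only within the 6 pairs that hold both, it was -0.23 ± 0.198 (SE) for CSF3R, 0.02 ± 0.242 for MMP9, -0.51 ± 0.348 for TGM3 and -0.01 ± 0.0482 for QSOX1. The values from all heifers are those by which the genes were listed, and they are not evidence for a difference. Over all tested genes 0 (0%) were called for fertility by edgeR at an adjusted p under 0.05 and 354 (2.62%) at an unadjusted p under 0.05 (1.66% higher and 0.953% lower in Fertile heifers), whereas DESeq2 called 0 and 529 (3.91%).

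Within Angus, the same log2 difference was -0.12 ± 0.238 (SE) for CSF3R, -0.16 ± 0.465 for MMP9, -0.70 ± 0.629 for TGM3 and 0.00 ± 0.126 for QSOX1. Within Holstein it was -0.79 ± 0.258 for CSF3R, -1.47 ± 0.522 for MMP9, -1.31 ± 0.680 for TGM3 and 0.39 ± 0.136 for QSOX1. The Holstein value was farther from 0 for each gene. Over all tested genes, differences were called more often in Holstein too. In edgeR fits of each breed alone, 9.62% of them had an unadjusted p under 0.05 for fertility in Holstein and 2.96% in Angus. Counted by animals, a Fertile heifer was above a Sub-Fertile heifer in 3 of 25 Holstein pairings for CSF3R, 2 for MMP9, 7 for TGM3 and 22 for QSOX1. The Angus counts were 15, 14, 12 and 16 of 35 pairings.

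Whether the fertility difference depended on breed was tested with an interaction term. The difference in log2 fold change, Holstein minus Angus, was -0.67 ± 0.348 (SE) for CSF3R, -1.31 ± 0.693 for MMP9, -0.61 ± 0.911 for TGM3 and 0.38 ± 0.186 for QSOX1. The edgeR adjusted p-values were 0.497, 0.497, 0.815 and 0.485 (unadjusted 0.0697, 0.0733, 0.511 and 0.0520), so a dependence on breed was not resolved for any of them. Over all tested genes edgeR called 0 (0%) at an adjusted p under 0.05 and 1408 (10.4%) at an unadjusted p under 0.05 (5.55% with a higher and 4.85% with a lower Fertile over Sub-Fertile ratio in Holstein heifers), and DESeq2 called 0 and 1657 (12.2%).

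**Figure D2:**
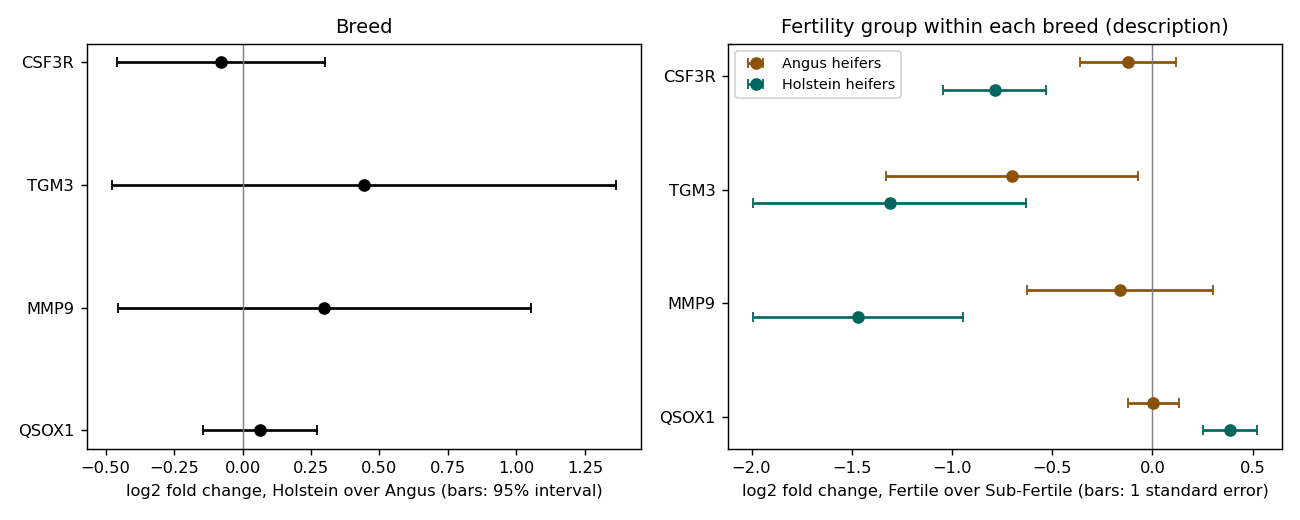
Left, log2 fold change of Holstein over Angus heifers for each gene with its 95% interval, each of which includes 0. Right, log2 difference of Fertile minus Sub-Fertile heifers within Angus and within Holstein heifers with bars of 1 standard error, shown as a description. The Holstein value lies farther from 0 for each gene, but no dependence on breed was resolved.

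The co-variation of the genes between animals was then examined on log2(CPM + 0.5) values centred within the 4 groups of breed and fertility, which takes both group differences out. CSF3R and TGM3 were positively correlated over the 22 heifers (Pearson r = 0.69, Spearman rho = 0.65). They lay on the same side of their group means in only 13 of 22 heifers, the same count as for TGM3 and QSOX1. The permutation test within groups gave p = 0.00124 for r and 0.00305 for rho, or 0.0161 and 0.0396 after Benjamini-Hochberg adjustment over the 26 relations computed. Without heifers 6 and 8, the 2 farthest from the median of CSF3R, r was 0.589. Among all other tested genes, only 0.451% had a higher r with CSF3R than TGM3 had.

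The strength of this relation varied with the animals included. In Holstein heifers alone, r between CSF3R and TGM3 was 0.871 (adjusted p = 0.0923, permutation test), and in Angus heifers alone it was 0.462 (adjusted p = 0.419, permutation test). It no longer passed the threshold without heifer 3 (r = 0.646, adjusted p = 0.0552) or without heifer 8 (r = 0.608, adjusted p = 0.0789), both by permutation tests. With 1 heifer of each close pair kept, r was 0.734 (adjusted p = 0.403, permutation test). The positive direction was thus kept in each of these subsets, and the call was not.

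MMP9 and QSOX1 did not share this pattern beyond the error. The r between CSF3R and MMP9 was 0.30 (adjusted p = 0.332, permutation test), and that between MMP9 and TGM3 was 0.34 (adjusted p = 0.332). QSOX1 had r = 0.02 with CSF3R (adjusted p = 0.960), 0.20 with TGM3 (adjusted p = 0.542) and -0.36 with MMP9 (adjusted p = 0.332), all by permutation tests. The relation between CSF3R and MMP9 rested on heifers 6 and 8, since r was 0.036 without them. When the group means were left in, r was 0.505 for CSF3R with MMP9, 0.488 for MMP9 with TGM3 and -0.507 for MMP9 with QSOX1, and these 3 relations passed the threshold (adjusted p = 0.0389, 0.0435 and 0.0389, permutation tests), but they then contain the fertility difference by which the genes were listed.

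None of the 4 genes had a relation with library depth that passed the threshold. The largest were r = -0.42 for QSOX1 and 0.40 for MMP9 against the log2 total count (unadjusted p = 0.0859 and 0.108, permutation test).

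**Figure D3:**
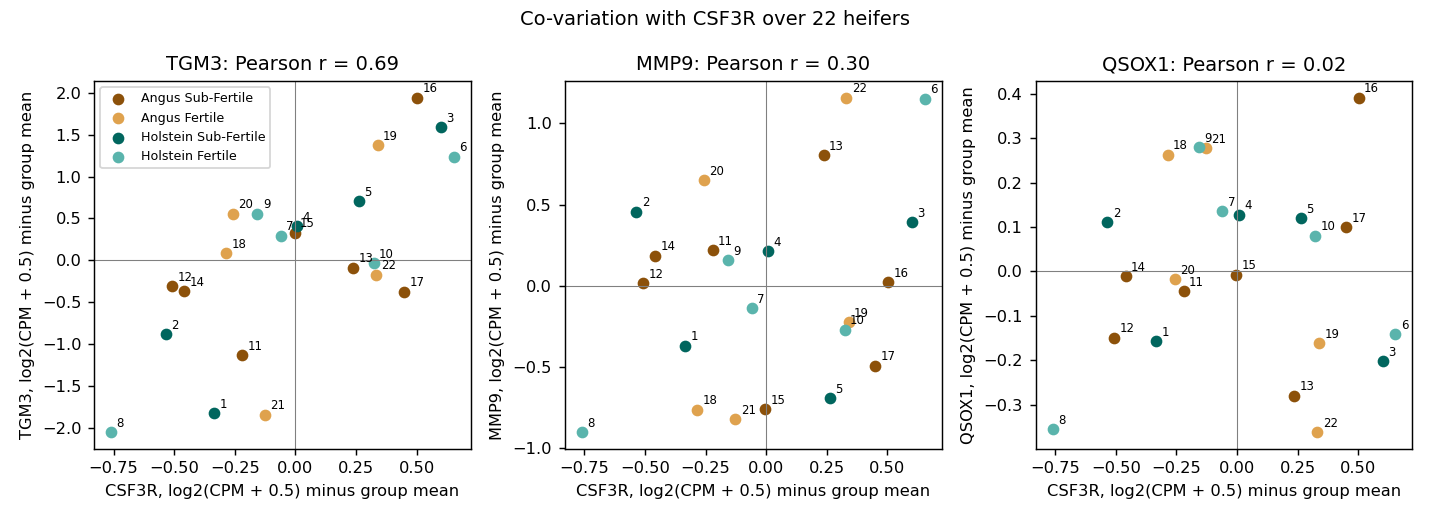
TGM3, MMP9 and QSOX1 against CSF3R in 22 heifers, each as log2(CPM + 0.5) minus the mean of its breed and fertility group, with points labelled by heifer number and coloured by group. TGM3 correlates with CSF3R (r = 0.69) more than MMP9 (r = 0.30) and QSOX1 (r = 0.02) do, and heifer 8 lies at the lower left of every panel.

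The label of the 4 genes as neutrophil genes was compared with marker lists, of which few genes could be matched by name. Names came only from the first 1401 rows of the table ordered by the fertility difference. The markers found were thus chosen by that contrast too, and their levels by fertility group are descriptions. Of the lists, 1 of 31 neutrophil granule proteins, 4 of 27 neutrophil surface receptors and 1 of 8 genes of the NADPH oxidase and extracellular traps were named, 0 of 13 monocyte markers, and 0 of 14 markers of natural killer and cytotoxic cells. The named neutrophil receptors were C5AR1, the receptor for a fragment of complement, FCAR, an Fc receptor for immunoglobulin A, ADGRE3, an adhesion receptor of myeloid cells, and TREML2, a receptor of the immunoglobulin superfamily. Their summed level was 247 to 324 CPM in Holstein Fertile, 274 to 395 in Holstein Sub-Fertile, 312 to 372 in Angus Fertile and 261 to 371 in Angus Sub-Fertile heifers. The granule protein PGLYRP1, which binds bacterial peptidoglycan, was as scarce as MMP9, with 0.839 to 3.08 CPM.

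The mean of the 4 receptors co-varied with CSF3R (r = 0.72, rho = 0.71, adjusted p = 0.0148 for r and 0.0299 for rho, permutation test) and was 0.627 without heifers 6 and 8. For TGM3, r was 0.58 (adjusted p = 0.0762) and rho 0.60 (adjusted p = 0.0478), for MMP9 r was 0.48 (adjusted p = 0.156), and for QSOX1 it was -0.0036 (adjusted p = 0.988), all by permutation tests. The r of TGM3 passed the threshold without heifer 4, 18 or 21 (0.626 to 0.651, adjusted p = 0.0303 to 0.0472, permutation tests). The 4 receptors did not share the relation to CSF3R evenly. C5AR1 had r = 0.94 and FCAR 0.53, whereas ADGRE3 had 0.12 and TREML2 -0.19. The named neutrophil genes outside this list went the other way. PGLYRP1 had r = -0.33 with CSF3R, and HVCN1, the named gene of the oxidase list, had -0.41. With TGM3 they had -0.17 and 0.03. The relation of CSF3R to the receptors lost its call without heifer 8 (r = 0.645, adjusted p = 0.0789, permutation test), within Angus heifers alone (r = 0.734, adjusted p = 0.238), within Holstein heifers alone (r = 0.734, adjusted p = 0.271), and with 1 heifer of each close pair (r = 0.559, adjusted p = 0.530).

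Of the genes of G-CSF receptor signalling and granulocyte development, 3 of 30 were named. MXD1, an antagonist of MYC that is induced as myeloid cells mature, had r = 0.84 with CSF3R and 0.75 with TGM3. JAK2, the kinase that G-CSF receptor signalling engages, had r = 0.54 with CSF3R, 0.23 with TGM3 and 0.50 with MMP9. GRB2, an adaptor of receptor signalling, had r = -0.10 with CSF3R. MXD1 and JAK2 thus had the higher r with the receptor transcript, given as a description.

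Among the lists, QSOX1 had its highest r with markers of other cell types. Its r was 0.57 with the mean of the 2 named T cell markers (of 19), CD163L1 and GATA3 (adjusted p = 0.0762, permutation test), and 0.55 with the 2 named platelet markers (of 11), ITGA2B and GP9 (adjusted p = 0.129, permutation test). Neither passed the threshold. The T cell relation did so without heifer 9 (r = 0.706, adjusted p = 0.0113) and the platelet relation without heifer 16 (r = 0.746, adjusted p = 0.0208), both by permutation tests. The summed level of the 2 T cell markers was 135 to 281 CPM in Holstein Fertile and 66.6 to 150 CPM in Holstein Sub-Fertile heifers, and 92.2 to 201 and 98.3 to 247 CPM in the Angus groups in the same order. The summed platelet level was 37.5 to 73.1 and 33.8 to 47.2 CPM in the Holstein groups, and 33.1 to 68.8 and 33.8 to 50.6 CPM in the Angus groups. These T cell and platelet markers were also named from rows ordered by the fertility difference, so their group levels are descriptions. The part of these cells in the QSOX1 levels was not tested.

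Of 14 genes of disulfide formation, 4 were named. PRDX4, a peroxiredoxin of the endoplasmic reticulum, had r = 0.53 with QSOX1, but P4HB and PDIA4, both protein disulfide isomerases, had 0.03 and 0.04, and GFER, a sulfhydryl oxidase of the same wider family as QSOX1, had -0.18. Apart from PRDX4, the genes of this step thus had r near or below 0 with QSOX1.

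**Figure D4:**
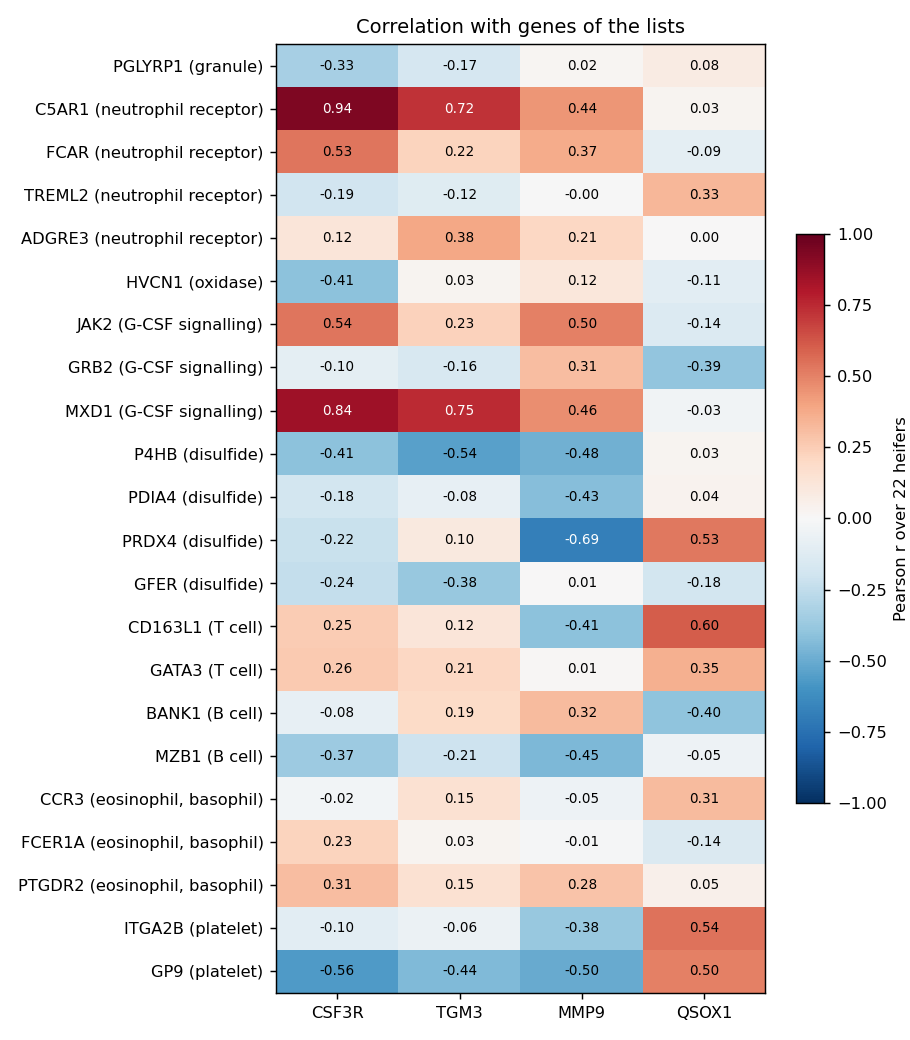
Pearson r over 22 heifers, after centring within breed and fertility groups, between each of the 4 genes (columns) and the 22 named genes of the marker and pathway lists (rows), with the value in each cell. CSF3R and TGM3 share high values with C5AR1 and MXD1, whereas QSOX1 has its highest values with CD163L1, ITGA2B and PRDX4.

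Together, 22 of 231 genes in the lists were named and tested. For breed, 0 of 22 passed an adjusted p under 0.05 in edgeR, and 3 of 22 had an unadjusted p under 0.05 against 10.6% of all tested genes. BANK1, a scaffold of B cell receptor signalling, had a log2 fold change of 0.25 in Holstein over Angus heifers, GFER had -0.16, and PTGDR2, a prostaglandin receptor of eosinophils and basophils, had -0.38. The median over the 22 genes was -0.013 on the log2 scale, as it was over all tested genes. For the interaction, 0 of 22 passed at the adjusted and 5 of 22 at the unadjusted threshold (edgeR) against 10.4% of all tested genes. The difference in log2 fold change was -1.62 for FCAR, -1.25 for ADGRE3, -0.17 for GRB2, 1.18 for CD163L1 and 0.57 for GATA3.

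The genes whose pattern was most like that of each gene were sought among the 1124 or 1125 named genes with a mean of at least 5 CPM. These candidates all come from the rows listed first for fertility, and the r values below are descriptions. For CSF3R they were C5AR1 (r = 0.94), IL1B (0.88), a pro-inflammatory cytokine, KCNJ2 (0.86), an inward rectifier potassium channel, MXD1 (0.84) and KDM6B (0.79), a histone demethylase. No other tested gene, named or not, had a higher r with CSF3R than C5AR1. For TGM3 they were IL1B (0.83), KCNJ2 (0.77), MXD1 (0.75), C5AR1 (0.72) and CSF3R itself (0.69). CSF3R and TGM3 thus had 4 of their 5 nearest genes in common.

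MMP9 had other genes near it, among them MARK2 (r = 0.75), a kinase of cell polarity, CMTM6 (0.74), a membrane protein that stabilizes a checkpoint ligand, GPAT3 (0.70), an enzyme of triglyceride synthesis, and NUP153 (0.68), a nuclear pore protein. With 1 heifer of each close pair kept, the r values of these 4 genes lay within 0.418 to 0.630, whereas the 5 nearest genes of CSF3R stayed within 0.747 to 0.954. The genes nearest to QSOX1 were OSBPL1A (0.71), a sterol-binding protein, TMCC2 (0.70), FABP3 (0.69), a fatty acid-binding protein, NPDC1 (0.68) and ETV2 (0.65), an ETS transcription factor. Among the lowest values for QSOX1 was that of SNAP23 (-0.70), a protein of membrane fusion.

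The lowest values for CSF3R were those of ANKH (-0.65), a membrane protein of pyrophosphate export, SNRPG (-0.63), a core protein of the spliceosome, and EIF3K (-0.63), a subunit of a translation initiation factor. For TGM3 they were P4HB (-0.54), C3H1orf122 (-0.51) and DCTN3 (-0.50), a subunit of dynactin. For MMP9 they were SLC25A6 (-0.69), a mitochondrial ADP and ATP carrier, PRDX4 (-0.69) and SSR4 (-0.65), a protein of the translocon.

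The 4 genes were also compared within the close pairs, where most other transcripts were nearly equal. In 6 of the 8 pairs the heifers came from different fertility groups. The differences there contain the contrast by which the genes were listed, so all values within pairs are descriptions. In heifers 13 and 22, CSF3R was 341 and 340 CPM, MMP9 was 3.63 and 3.73 CPM, and QSOX1 was 115 and 108 CPM, whereas TGM3 was 27.7 and 15.7 CPM. In heifers 10 and 18, TGM3 was 19 and 18.9 CPM and CSF3R 241 and 221 CPM. TGM3 differed more than 99.7% of tested genes in the former pair, and MMP9, with 0.839 and 0.619 CPM, more than 87.6% in the latter. In heifers 5 and 6, the absolute log2 difference was 0.41 for CSF3R, 0.57 for MMP9 and 0.64 for TGM3 against a median of 0.117 over all tested genes, and in heifers 15 and 19 it was 0.24, 0.22 and 0.33 against 0.0707. These 3 genes thus differed more than the median gene in both of the last pairs as well. In heifers 1 and 11, however, CSF3R and TGM3 each differed by 0.102, near the median of 0.100. The MMP9 difference of heifers 15 and 19 rests on 28 and 49 counts, whose Poisson 95% intervals overlapped (0.595 to 1.29 and 0.831 to 1.49 CPM). The MMP9 intervals also overlapped in heifers 10 and 18 (32 and 13 counts) and in heifers 5 and 6 (27 and 53 counts). They did so in heifers 7 and 16 as well (12 and 25 counts).

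The differences of CSF3R, TGM3 and MMP9 were largest in heifers 7 and 16 and in heifers 8 and 12. Heifer 7 (Holstein Fertile) had 184 CPM of CSF3R, 24.0 of TGM3 and 0.968 of MMP9, and heifer 16 (Angus Sub-Fertile) had 410, 115 and 1.90 CPM. The absolute log2 difference was 1.15 for CSF3R and 2.23 for TGM3 against a median of 0.135 over all tested genes, and it exceeded that of 99.2% and 99.9% of them. Heifer 8 (Holstein Fertile) had 113 CPM of CSF3R, 4.33 of TGM3 and 0.366 of MMP9, and heifer 12 (Angus Sub-Fertile) had 203, 23.8 and 1.89 CPM. There the log2 difference was 0.84 for CSF3R, 2.33 for TGM3 and 1.46 for MMP9 against a median of 0.0858. QSOX1 did not take part, with 185 and 183 CPM in the former pair and 131 and 126 CPM in the latter.

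**Figure D5:**
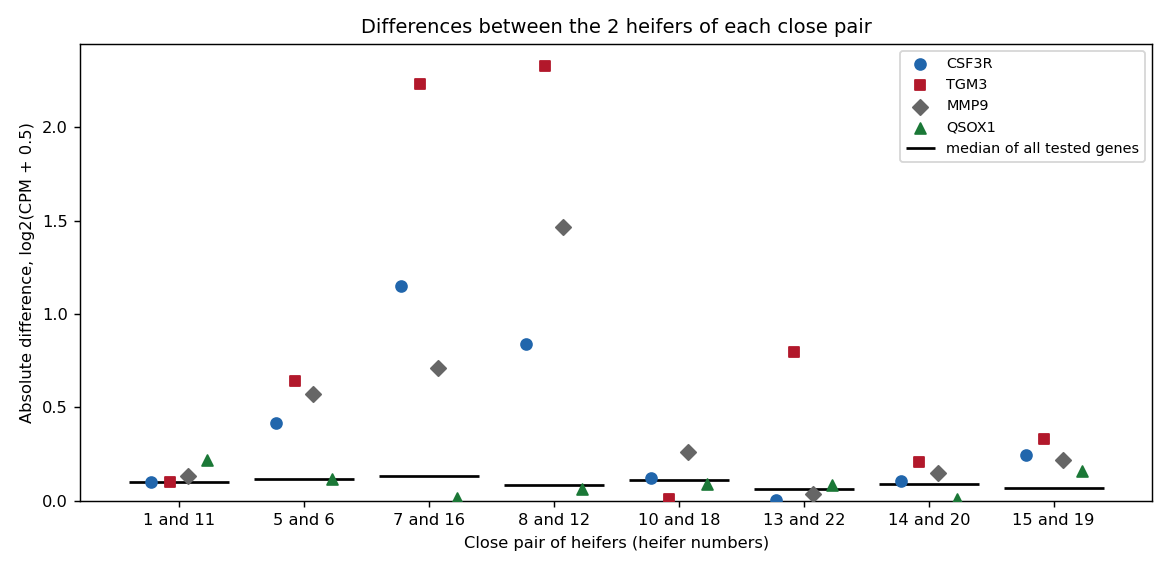
Absolute difference in log2(CPM + 0.5) between the 2 heifers of each of 8 close pairs for the 4 genes (symbols), with the median over all tested genes as a black line. TGM3 reaches 2.23 in heifers 7 and 16 and 2.33 in heifers 8 and 12, whereas QSOX1 stays at or under 0.220 in all pairs.

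Genes nearest to CSF3R differed in the same pairs, but they were picked by their r with CSF3R over these same heifers. Their differences are thus no independent result. C5AR1 was 32.0 CPM in heifer 7 and 59.3 CPM in heifer 16, and 15 CPM in heifer 8 and 29.4 CPM in heifer 12. IL1B was 21.5 and 65 CPM in the former pair and 10.4 and 24.6 CPM in the latter. Both were higher in the Angus Sub-Fertile heifer of each pair, as were CSF3R, TGM3 and MMP9.

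Because CSF3R, TGM3 and MMP9 differed most within these 2 pairs, the values were also computed without heifers 7, 8, 12 and 16, an alternative chosen after seeing the data. The r between CSF3R and TGM3 was then 0.570 (adjusted p = 0.119, permutation test), and that between CSF3R and the neutrophil receptors 0.548 (adjusted p = 0.119, permutation test), so neither call was kept. The r between CSF3R and QSOX1 became -0.505 (adjusted p = 0.144, permutation test). The log2 difference of Fertile minus Sub-Fertile heifers was -0.47 for TGM3, -0.30 for CSF3R, -0.56 for MMP9 and 0.23 for QSOX1, in the same directions as with all heifers. For TGM3, that value was less than the -0.98 of all heifers by more than 1.5 times.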

How the data were processed

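The authors aligned paired-end reads to the cattle genome (ARS-UCD1.2, Ensembl annotation) with HISAT2. Duplicates and secondary or unmapped reads were dropped (SAMtools, biobambam2). The authors deposited unfiltered fragment counts per gene from featureCounts, 1 column for each of 22 heifers. The sources used here do not give its strand setting. The count table was used as deposited.

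Genes with CPM above 1 in at least 5 heifers were fitted with edgeR 4.0.16 (R 4.3.3) by the robust quasi-likelihood test, with breed and fertility group as terms and library sizes as sums of counts. A second fit had their interaction. P-values were adjusted (Benjamini-Hochberg) over 13535 genes. DESeq2 1.42.0 was an alternative. Correlations used log2(CPM + 0.5) centred within groups and 100000 two-sided permutations within groups (20000 where 1 heifer was left out). The steps were tested on simulated data. Each library was labelled as another heifer. The p-values measure the spread between heifers only if the libraries are independent, which was not tested for the close pairs.

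Gene names, positions and transcript lengths came from the Ensembl annotation columns of the study's gene table, which named 1227 tested genes. The genes named are the 4 members, up to 4 genes of highest mean and 2 of smallest breed p in each of 14 lists, and for each member the 5 named genes of highest and 3 of lowest r at a mean of at least 5 CPM, some of which are not reported here. Members and lists were chosen with earlier results of these data known. Sequences are not printed.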

Additional observations from a re-analysis of the deposited data

Results flagged for a closer look

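TGM3 in Angus Sub-Fertile heifer 16 was 115 CPM, far above the 13.2 to 37.2 CPM of the other heifers of its group. It was the single value set apart by Dixon's test on CPM among 16 groups of values (4 genes in 4 groups). The test was not run on log2 values. Minus the group mean, log2(CPM + 0.5) of TGM3 was 1.94 in heifer 16, 0.33 in the next highest and -1.13 in the lowest heifer. Chance sets apart about 1 group in 20. In heifer 16 CSF3R was 410 CPM and QSOX1 183 CPM, each the highest of its group, and MMP9 was 1.90 CPM, the median of its group.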

How the results depend on the processing

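No paired analysis was possible because the labels give the heifers no number that is shared between groups. TMM factors, no filter, DESeq2 and another pseudocount, where they apply, changed no direction or call of the 4 genes' fold changes or of their relations with each other. The stricter filter removed MMP9 and changed no direction or call of the other 3 genes' fold changes. With close pairs as blocks, the breed log2 fold change was -0.45 for MMP9, -0.88 for TGM3 and -0.0076 for QSOX1, and the fertility log2 fold change was -0.23 for CSF3R, 0.0196 for MMP9, -0.51 for TGM3 and -0.01 for QSOX1 (MMP9 -1.47 in Holstein heifers alone). Without heifers 7, 8, 12 and 16, the breed log2 fold change was 0.0502 for CSF3R, 0.47 for MMP9, 0.96 for TGM3 and 0.11 for QSOX1. The causes were not tested.

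Leaving out each heifer in turn, the breed log2 fold change ranged from -0.19 to 0.0052 for CSF3R (above 0 only without heifer 8), 0.15 to 0.53 for MMP9, 0.15 to 0.75 for TGM3 and 0.02 to 0.11 for QSOX1. The fertility log2 fold change ranged from -0.49 to -0.33, -1.05 to -0.60, -1.23 to -0.68 and 0.14 to 0.24, and the interaction from -0.86 to -0.49, -1.89 to -0.82, -1.20 to -0.07 and 0.30 to 0.46, in the same order. Of the 22 list genes, which could be named only from rows ordered by the fertility difference, 2 had an unadjusted p under 0.05 for fertility with all heifers (2.62% of all tested genes), 0 in Angus alone (2.96%) and with blocks (4.72%), 5 with DESeq2 (3.91%), 7 in Holstein alone (9.62%), and 1 to 9 without 1 heifer (1.04% to 4.29%; 9 without heifer 19, 3.85%). For breed they were 3 with all heifers (10.6%), 0 with blocks (1.72%) and 2 to 4 without 1 heifer (7.53% to 16.2%).

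For CSF3R and TGM3, r was 0.608 to 0.743 without 1 heifer, 0.734 with 1 heifer of each close pair, 0.462 in Angus, 0.871 in Holstein and 0.570 without heifers 7, 8, 12 and 16. For CSF3R and QSOX1, r was -0.207 to 0.121 without 1 heifer, -0.299 without centring, -0.0178 in Angus and -0.505 without the 4 heifers. Without centring, r was 0.505 for CSF3R and MMP9, 0.488 for MMP9 and TGM3, -0.507 for MMP9 and QSOX1 and -0.0038 for TGM3 and QSOX1. The r of MMP9 and QSOX1 was 0.0474 with 1 heifer of each close pair and 0.125 in Holstein, and that of TGM3 and QSOX1 was -0.288 without the 4 heifers.

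Relations with the lists that turned, none of them called, were QSOX1 with neutrophil receptors (0.0319 with TMM factors, 0.188 with 1 heifer of each close pair, 0.302 in Holstein, -0.251 to 0.151 without 1 heifer), with B cell markers (0.195 without the 4 heifers) and with eosinophil and basophil markers (-0.0172 in Holstein). CSF3R turned with T cell markers (-0.136 without centring) and with eosinophil and basophil markers (-0.0785 in Angus). TGM3 turned with T cell markers (-0.0831 without centring, -0.106 without the 4 heifers, -0.0442 to 0.311 without 1 heifer), B cell markers (0.267 without the 4 heifers, -0.321 to 0.0847 without 1 heifer), eosinophil and basophil markers (-0.159 in Angus) and platelet markers (0.0556 with 1 heifer of each close pair). MMP9 turned with eosinophil and basophil markers (-0.103 without centring, -0.0691 in Angus, -0.0055 to 0.199 without 1 heifer). Without centring, which leaves the fertility difference in, 7 further relations with the lists passed the threshold, 2 with neutrophil receptors, 2 with T cell markers and 3 with platelet markers. Depth limits MMP9 most, whose lowest library held 6 counts.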

Other observations

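The markers of other leukocytes that were matched by name varied less than TGM3. This holds for most genes, since TGM3 had a larger coefficient of variation than 99.2% of all tested genes. Among these markers CD163L1, of T cells, ranged widely, from 22.1 to 190 CPM. BANK1, of B cells, ranged from 238 to 512 CPM over the 22 heifers, and MZB1, of antibody-secreting cells, from 36.9 to 143 CPM. CCR3, the eotaxin receptor of eosinophils, ranged from 19.6 to 66.7 CPM, and FCER1A, a subunit of the high-affinity receptor for immunoglobulin E of basophils, from 5.09 to 17 CPM. Relations of CSF3R with the mean of the B cell markers (r = -0.39, adjusted p = 0.323, permutation test) and with that of the eosinophil and basophil markers (r = 0.28, adjusted p = 0.379, permutation test) did not pass the threshold. With the platelet markers, r was -0.44 for CSF3R (adjusted p = 0.156, permutation test), -0.49 for MMP9 (adjusted p = 0.187) and -0.34 for TGM3 (adjusted p = 0.332), opposite in sign to the 0.55 of QSOX1.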
